A study of Homo sapiens with 6 samples.

Results

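The transcriptome of TCam-2 cells carrying RBMXL3 was compared with that of cells carrying GFP, gene by gene, in the 2 libraries of each. TCam-2 cells are a long-established line from a human seminoma, a testicular germ cell cancer, and were grown in RPMI 1640 medium with fetal bovine serum. The RBMXL3 cells had been transduced with RBMXL3_FLAG and the GFP cells with GFP_FLAG, so both groups share transduction and the FLAG tag. Non-transduced cells (WT, 2 libraries) served as a further control. The labels name neither the promoter of the constructs nor whether the transduced cells were a clone or a pool. Members of the comparison are the genes with at least 50 normalised counts in at least 2 of its 4 libraries, 12617 of the 62700 genes listed, and all 12617 had entered the fit of 14292 genes. The choice used the level in any 2 of the 4 libraries, so a gene could enter through a single group. Among genes named below, RBMXL3, COL7A1, FOXA2 and WNT5A entered through the RBMXL3 libraries only. MT1H, MT1M and COL16A1 entered through the GFP libraries only. For such genes the choice is not independent of the difference between groups. The study asks which genes change in expression when RBMXL3 is overexpressed.

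RBMXL3 belongs to the RBMX family of RNA-binding proteins, whose founding member binds RNA in the nucleus and takes part in splicing, and several family members are known from the testis. Seminoma cells resemble primordial germ cells, and keep pluripotency factors such as POU5F1 and NANOG together with SOX17. Among the gene groups described below, ATF4 is the transcription factor of the response to amino acid shortage, made mainly by a change in translation of its mRNA. Metallothioneins are small cysteine-rich proteins that bind zinc and copper, switched on through the metal-sensing factor MTF1, and collagens are the main fibre and sheet proteins of the extracellular matrix.

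Promoter sequences are shown for 4 genes of 2 groups that moved together and whose known regulators bind a short DNA element, from the promoter table of RefSeq (GRCh38.p14): CHAC1 of the ATF4 group, and MT2A, MT1H and MT1X, the 3 of 7 metallothioneins with an entry. Each is the 250 bases before the transcription start on the plus strand, with motif matches on either strand in capitals. The positions are chr15:40953221-40953470 for CHAC1, chr16:56608334-56608583 for MT2A, chr16:56669564-56669813 for MT1H and chr16:56682220-56682469 for MT1X.
CHAC1: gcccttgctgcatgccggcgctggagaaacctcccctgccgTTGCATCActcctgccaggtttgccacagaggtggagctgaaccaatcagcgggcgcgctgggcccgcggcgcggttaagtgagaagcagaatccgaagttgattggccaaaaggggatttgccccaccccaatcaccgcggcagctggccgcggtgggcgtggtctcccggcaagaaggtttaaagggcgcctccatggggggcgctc
MT2A: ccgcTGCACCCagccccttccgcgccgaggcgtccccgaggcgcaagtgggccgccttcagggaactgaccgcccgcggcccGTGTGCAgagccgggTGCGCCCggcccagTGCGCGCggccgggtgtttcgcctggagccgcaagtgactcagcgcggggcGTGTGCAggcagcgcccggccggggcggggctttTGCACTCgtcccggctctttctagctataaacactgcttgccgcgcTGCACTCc
MT1H: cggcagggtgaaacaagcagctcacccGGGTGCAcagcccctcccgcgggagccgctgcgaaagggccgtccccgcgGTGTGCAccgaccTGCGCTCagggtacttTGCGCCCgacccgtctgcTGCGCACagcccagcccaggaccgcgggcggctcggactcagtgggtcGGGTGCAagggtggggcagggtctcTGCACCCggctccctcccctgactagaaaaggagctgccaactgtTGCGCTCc
MT1X: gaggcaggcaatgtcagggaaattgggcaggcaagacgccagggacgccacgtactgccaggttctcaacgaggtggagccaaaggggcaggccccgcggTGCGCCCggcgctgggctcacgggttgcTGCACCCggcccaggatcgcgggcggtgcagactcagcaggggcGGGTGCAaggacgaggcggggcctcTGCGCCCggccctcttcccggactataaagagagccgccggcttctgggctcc
In CHAC1 the capitals mark a C/EBP-ATF response element, searched as TGATGNAA on both strands, with its first base 209 bases before the start. In the window from 250 bases before to 50 after the start, this motif was found in 2 of the 16 called ATF4 group genes with a promoter entry (12.5%), CHAC1 and SLC3A2, and in 4 of all 27 list members with one (14.8%). It was found in 1.57% of the 9851 members with an entry and in 3.67% of all 27305 promoters of the table. In the metallothioneins the capitals mark the core of the metal response element, searched as TGCACNC or TGCGCNC on both strands. MT2A had 8 matches in the window, 7 of them in the stretch shown and 1 after the start, MT1H had 8 and MT1X had 4. This short core was found in 40% of members with a promoter entry and in 29.3% of all promoters. A match describes letters in a window, and neither binding nor use of a site was measured.

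The libraries held 17685680 and 21023355 reads in RBMXL3 and 26776703 and 23080795 in GFP, so counting error was larger in the RBMXL3 libraries. The median absolute log2 difference between the 2 libraries of a group was 0.077 for RBMXL3, 0.183 for GFP and 0.124 for WT. The share of mitochondrial reads was 1.31% in GFP replicate 1 and from 2.02% to 3.02% elsewhere. The labels do not say that duplicates came from separate cultures, so p-values measure the spread between these libraries, which may be technical. The labels give no batch or date, so the group cannot be told apart from how its libraries were prepared. In bulk samples, fewer cells of a type and less RNA per cell cannot be told apart either.

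The labels were checked on RBMXL3 itself (on the plus strand of chromosome X, 115189427 to 115192868 in GRCh38), with 84 and 68 reads in the RBMXL3 libraries and 0 in the GFP and WT libraries. Its normalised count of 90.4 ± 25.1 (SD, n = 2) was at least 30.4-fold higher than the mean floor of 3 reads in a GFP library. Seminoma markers were detected in both groups, at levels that differed for several of them. POU5F1 stood at 41233 and 40115 normalised counts in the RBMXL3 libraries and 29921 and 34996 in the GFP libraries. LIN28A was at 11935 and 12244 against 14789 and 16619, and NANOG at 16054 and 16106 against 18297 and 20173. KIT, PRDM1 and PDPN were also lower in both RBMXL3 libraries than in both GFP libraries. SOX17, at 3169.8 and 3951 against 3546 and 4189, overlapped between groups, as did TFAP2C and ALPL. SOX2, a marker of embryonal carcinoma rather than seminoma, was at 32.2 and 34.2 against 15.7 and 11.7. Marker lists of other cells were summed in each library. Of 16 immune and endothelial markers, 4 (CD3D, CD3E, CD68 and MS4A1) were at 0 in the 4 libraries, and the 16 summed to 606 and 659 in RBMXL3 against 852 and 671 in GFP. Of 30 trophoblast markers, CGB1 and CGB2 were at 0, and the list summed to 5544 and 5682 against 5714 and 5361. Of 30 markers of somatic layers 7 were at 0, among them AFP, PAX3, PAX6, SOX10, TTR and ZEB2, and the list summed to 4591 and 4676 against 4062 and 4299.

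Between RBMXL3 and GFP cells 2846 members were called, at a limma adjusted p under 0.05 over all genes tested. That is 22.6% of the members (over all 14292 genes tested, 10.5% were higher and 10.4% lower), with 1432 higher (11.3%) and 1414 lower (11.2%) in RBMXL3. The median change was -0.004 on the log2(value + 1) scale, where value is the normalised count divided by 23.9, and the middle 50% of members lay between -0.20 and 0.21. Most calls were therefore small, and 88 members rose by at least 1 (0.697%) while 40 fell by at least 1 (0.317%). The 2 RBMXL3 values lay outside the 2 GFP values in 63.5% of members. Fits that leave out a library are given below, and they change the estimate of spread that all groups share. The RBMXL3 pair was the closest, with a median absolute difference of 0.077 against 0.183 for GFP and 0.124 for WT. A call lost without an RBMXL3 library is thus not by itself a sign that the change rests on both. All called members kept their direction when either RBMXL3 library was left out. They had been called on these same libraries, so the kept direction is not an independent check of the calls. RBMXL3 cells were also compared with WT, where 15.2% of members were called higher and 16.3% lower, and GFP with WT, where the shares were 1.91% and 2.08%. These comparisons share libraries with the first, so their values are given side by side and are not independent.

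**Figure D1:**
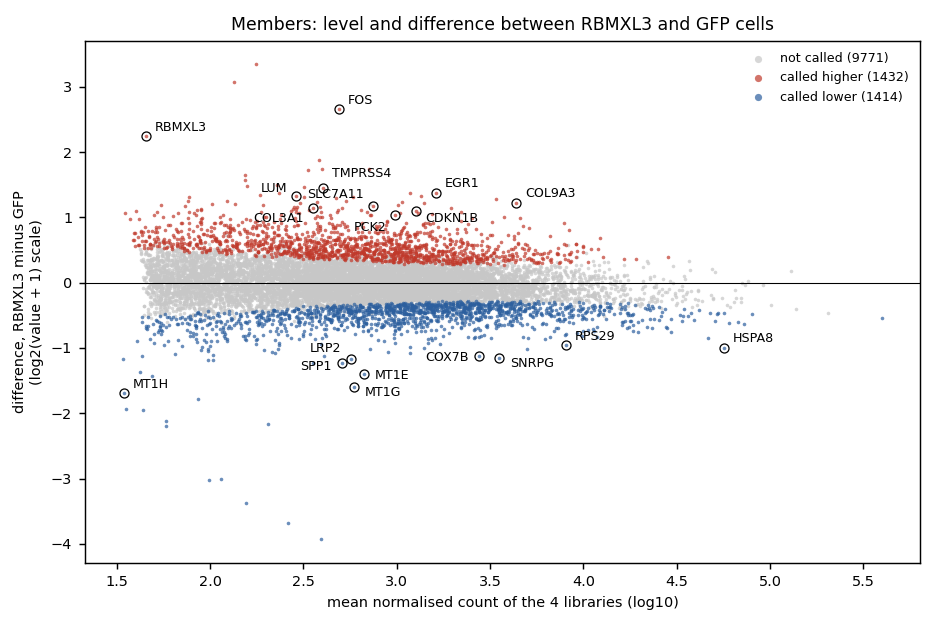
Each point is 1 of the 12617 members, with the mean normalised count of the 4 libraries on a log10 axis and the difference between RBMXL3 and GFP cells on the log2(value + 1) scale. Red points (1432) were called higher and blue points (1414) lower, FOS stands highest among the genes labelled and MT1H and MT1G lowest, and the unlabelled points below -2 are mostly genes antisense to abundant genes, which are not described here.

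A second deposited table, transcript TPM from salmon, gives a reading of the same libraries by another quantification. Summed per gene, its median change over members was 0.12 rather than 0, so TPM changes below are given relative to that shift. In it limma called 702 members higher and 178 lower, against 1432 and 1414 in counts. Of the 1375 higher members with a TPM value 1252 were also higher in TPM and 470 were called, and of 1372 lower members 1257 were lower and 120 called. Of the 88 rises of at least 1, 32 reached 1 in TPM and 23 stayed under 0.3 before the shift was subtracted. For some of the genes below the counted and the estimated level differ in this way, and TPM values are given beside several of them.

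FOS is the AP-1 subunit switched on within minutes by growth signals and stress. Apart from RBMXL3 itself, FOS had the largest rise among genes chosen by the naming rule. RBMXL3, with no reads in GFP cells, changed by 2.24 on the log2(value + 1) scale, which is understated at this level. Large rises that both tables hold included genes of the cell surface and matrix. TMPRSS4 (ENSG00000137648.19; chromosome 11, 118077012 to 118121890, plus strand), a membrane serine protease of epithelial tumours, had 624 and 571 normalised counts in the RBMXL3 libraries against 236 and 175 in GFP, with 157 and 152 in WT. Both RBMXL3 libraries stood above all 4 controls, with a log2 change against GFP of 1.45 (SE 0.15; limma adjusted p 0.00016) and 1.46 in TPM. LUM (ENSG00000139329.5; chromosome 12, 91102629 to 91111831, minus strand), a proteoglycan that orders collagen fibres, had 425 and 421 against 131 and 179 in GFP, with 79.6 and 65.4 in WT, a change of 1.33 (SE 0.16; adjusted p 0.00041). LUM was also on the list of markers of other testis cells, where CYP17A1 and LHCGR were at 0 and the 19 genes summed to 16616 and 16968 in RBMXL3 against 21587 and 20915 in GFP. MAMDC4, an endocytic membrane protein, rose by 1.34 (adjusted p 0.00049), from 99.8 and 90.1 to 276 and 276.

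A set of large rises was seen in counts and not in TPM. PPP1CB, a catalytic subunit of protein phosphatase 1, had 4879.6 and 4784 normalised counts against 1695 and 2306, and changed by 1.28 in counts (limma adjusted p 0.00024) and -0.02 in TPM (adjusted p 0.55). ZNRF2, a ubiquitin ligase, changed by 1.50 and 0.14, and MZT1, a part of the gamma-tubulin complex, by 1.32 and 0.14. The difference between the tables for these genes was not tested. UBE2W, a ubiquitin-conjugating enzyme, and CASD1, a sialic acid acetyltransferase, rose in both tables, by 1.29 and 1.31 in counts and 0.79 and 0.84 in TPM.

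Among genes chosen by the naming rule, which takes protein-coding genes that share few exon bases with another gene, the largest falls were in metallothionein genes, described below, and in genes of matrix, endocytosis and protease inhibition, followed by SNRPG and COX7B, also described below. SPP1 (ENSG00000118785.15; chromosome 4, 87975650 to 87983426, plus strand), the secreted phosphoprotein osteopontin, had 306 and 284 against 779.9 and 675 in GFP, with 578 and 448 in WT. The RBMXL3 libraries were the lowest of the 6, and the change against GFP was -1.23 (SE 0.14; limma adjusted p 0.00028). FBN2, which builds the microfibrils of elastic tissue, fell by 1.22 (adjusted p 0.0012), with 193 and 206 against 638 and 389, and was not called in TPM (adjusted p 0.1). LRP2 (megalin), the large endocytic receptor of absorptive epithelia, had 314 and 353 against 972 and 625, a change of -1.17 (adjusted p 0.0027), and was not called in TPM either (adjusted p 0.14). SERPINB4, a serpin of squamous epithelium whose near-identical neighbour SERPINB3 can share its reads, had 65.7 and 42.8 against 147 and 158, a change of -1.19 (adjusted p 0.0018). NME1, a nucleoside diphosphate kinase, and SIAH2, a ubiquitin ligase of the hypoxia response, fell by 1.07 and 1.06 (adjusted p 0.00065 and 0.00049).

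Genes of the ATF4 and amino acid response were higher in RBMXL3 cells. Of the 33 members of this list, 20 were called higher and 0 lower, which is 60.6% against 11.3% of all members, with a median change of 0.36 against -0.004. The median was much the same for each of the 4 pairings of an RBMXL3 with a GFP library, from 0.36 to 0.40. In TPM 17 were called higher and 0 lower, and the median was 0.54 relative to that of all members. Against WT the median was 0.68, and GFP cells themselves stood 0.28 above WT with 8 genes called higher.

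Amino acid transporters of the list rose. SLC7A11 (ENSG00000151012.13; chromosome 4, 138164097 to 138242349, minus strand), the cystine importer that feeds glutathione synthesis, had 1042 and 1038 normalised counts in the RBMXL3 libraries, 404 and 492 in GFP, with 436 and 524 in WT. Both RBMXL3 values were above all 4 controls, with a log2 change against GFP of 1.18 (SE 0.13; limma adjusted p 0.00024). SLC1A5 (ENSG00000105281.12; chromosome 19, 46774883 to 46788594, minus strand), the main glutamine importer, had 4117 and 3994 against 2506 and 2349 in GFP, with 1667 and 1670.3 in WT, a change of 0.74 (SE 0.09; adjusted p 0.0005). SLC6A9, a glycine transporter, and SLC38A2, an importer of small neutral amino acids, rose by 0.81 and 0.72 (adjusted p 0.004 and 0.0028). SLC3A2, the heavy chain that SLC7A11 pairs with, rose by 0.31 (adjusted p 0.035). SLC3A2 lost its call without RBMXL3 replicate 1 and without RBMXL3 replicate 2 (limma adjusted p 0.29; 0.24).

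The biosynthetic and mitochondrial enzymes of the list rose as well. PHGDH and PSAT1 carry out the first steps of serine synthesis, and rose by 0.57 and 0.50 (limma adjusted p 0.0021 and 0.0064). ALDH1L2 (ENSG00000136010.14; chromosome 12, 105019784 to 105084577, minus strand), a mitochondrial folate enzyme, had 1056 and 885 against 444 and 474 in GFP, with 522 and 440.4 in WT. The RBMXL3 libraries stood apart from all others, with a change of 1.04 (SE 0.13; adjusted p 0.00045). PCK2 (ENSG00000100889.12; chromosome 14, 24094053 to 24110598, plus strand), which makes phosphoenolpyruvate in mitochondria, had 1356 and 1299 against 698 and 577 in GFP, with 305 and 357 in WT, so that the order was RBMXL3, GFP, WT, and changed by 1.04 (SE 0.12; adjusted p 0.00042). PHGDH and PSAT1 lost their call without RBMXL3 replicate 1 (limma adjusted p from 0.061 to 0.094), and PSAT1 without RBMXL3 replicate 2 (0.073).

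Of the regulators and feedback genes, those downstream of ATF4 rose in part. CHAC1, which degrades glutathione, had 507 and 569 against 379.8 and 348 in GFP, with 229 and 196 in WT, a change of 0.54 (SE 0.13; limma adjusted p 0.013). TRIB3, a pseudokinase that restrains the response, rose by 0.36, and PPP1R15A, which restores translation, by 0.49 (adjusted p 0.024 and 0.017). CEBPB, a partner of ATF4 on DNA, rose by 0.66 (adjusted p 0.0067), and STC2, a secreted glycoprotein, had 3017 and 2938 against 1734 and 1739, a change of 0.77 (adjusted p 0.00062). EIF4EBP1, a repressor of cap-dependent translation outside the list, rose by 0.63 (adjusted p 0.0024). CHAC1, PPP1R15A and TRIB3 lost their call without RBMXL3 replicate 1 (limma adjusted p from 0.062 to 0.23), and CEBPB, CHAC1, PPP1R15A and TRIB3 without RBMXL3 replicate 2 (from 0.054 to 0.18).

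ATF4 mRNA itself was not called, with 9563 and 9456 in the RBMXL3 libraries against 9468 and 9927 in GFP, where the pairs overlap, and a change of -0.03 (limma adjusted p 0.87). DDIT3, the pro-apoptotic factor CHOP, was at 0.08, the mTOR inhibitor DDIT4 at -0.06 and ATF3 at 0.22, and none of the 3 was called in counts, with ATF3 called in TPM (adjusted p 0.038). The TPM change of ATF4 was 0.85 and not called either (adjusted p 0.13), so the 2 tables give ATF4 itself different values. Groups next to the ATF4 list in the stress response did not move with it. Of 23 cytosolic aminoacyl-tRNA synthetases, which load tRNAs and include known ATF4 targets, 1 was called higher (CARS1, 0.47) and 4 lower, among them RARS1 at -0.63. Of 32 genes of the unfolded protein response of the endoplasmic reticulum 2 were called higher (6.25%) and 4 lower (12.5%), with a median of -0.03. The shares of the synthetases were 4.35% and 17.4%, and those of all members 11.3% and 11.2%. In TPM 4 of the synthetases were called higher and 0 lower. The count of the ATF4 list fell to 8 without RBMXL3 replicate 1 and 8 without RBMXL3 replicate 2, with 0 lower in both. CARS1 lost its call without RBMXL3 replicate 1 and without RBMXL3 replicate 2 (limma adjusted p 0.11; 0.067).

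**Figure D2:**
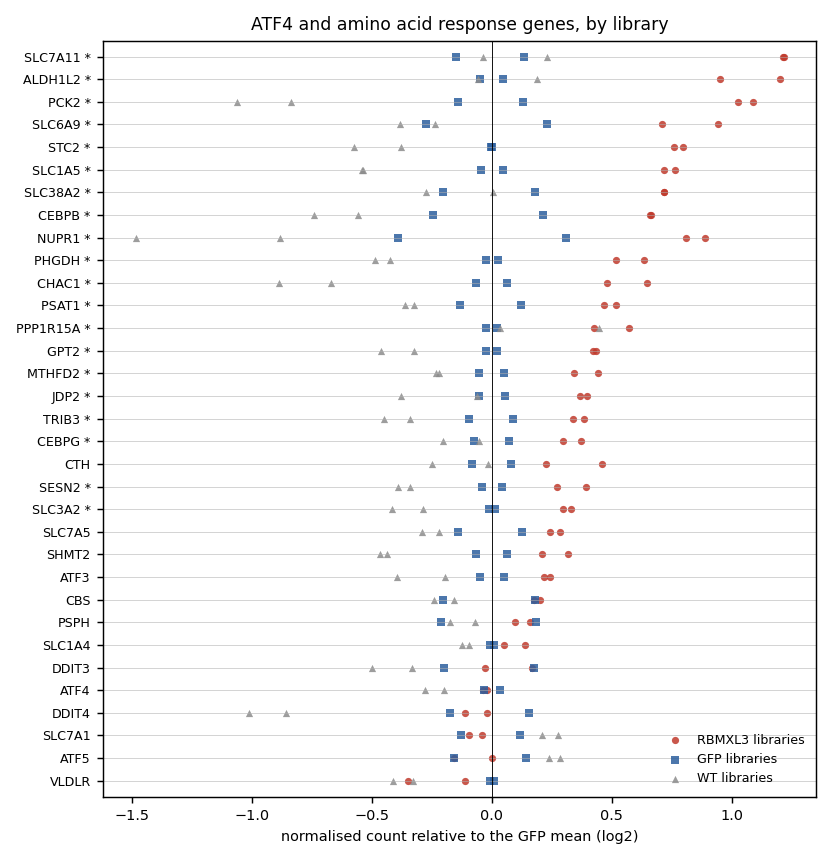
The 33 members of the ATF4 and amino acid response list are shown by library, as log2 of the normalised count over the mean of the 2 GFP libraries, and an asterisk marks the 20 called between RBMXL3 and GFP. The red RBMXL3 points lie right of the blue GFP points from SLC7A11 down to SLC3A2, while ATF4, DDIT3 and DDIT4 overlap, and most grey WT points lie left of GFP.

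Metallothioneins were lower in RBMXL3 cells, in a cluster of genes on chromosome 16. Of the 7 members, 6 were called lower (85.7%, against 11.2% of all members) with a median change of -1.16. The pairings of an RBMXL3 with a GFP library gave medians from -1.32 to -1.11. MT1G (ENSG00000125144.14; chromosome 16, 56666731 to 56668065, minus strand) had 246 and 315 normalised counts in the RBMXL3 libraries against 922 and 871 in GFP, with 552 and 489.9 in WT. It changed by -1.60 (SE 0.13; limma adjusted p 3.2e-05), with the WT libraries between the other groups. MT1E (ENSG00000169715.15; chromosome 16, 56625475 to 56627112, plus strand) had 351 and 359 in RBMXL3, 1015 and 938 in GFP cells and 467 and 461 in WT cells, a change of -1.40 (SE 0.11; adjusted p 2.1e-05). MT2A (ENSG00000125148.7; chromosome 16, 56608199 to 56609497, plus strand), the most widely expressed isoform, had 672 and 663 against 1261 and 1302 in GFP, with 1105 and 862 in WT, a change of -0.92 (SE 0.12; adjusted p 0.00063).

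MT1F and MT1M fell by 1.07 and 1.16 (limma adjusted p 0.00016 and 0.0012). On the recovered reads edgeR gave MT1M a log2 change of -2.19, so its fitted change is understated at its low level. MT1H (ENSG00000205358.4; chromosome 16, 56669814 to 56671129, plus strand) was barely detected in RBMXL3 cells, with 3 reads in each library against 60 and 71 in the GFP libraries, with 15 and 24 in WT. Its ratio of RBMXL3 to GFP was 5.42% (95% exact conditional interval from 1.95% to 12.1%, counting error only), and its fitted change of -1.69 is understated at this level. MT1X, whose promoter is shown above beside those of MT2A and MT1H, was the member not called in counts, with 103 and 90.9 against 98.9 and 144 and a change of -0.25 (adjusted p 0.33). In TPM MT1X was called lower, at -0.74 (adjusted p 0.028), and MT2A was not, at -0.76 (adjusted p 0.063). These genes are near-identical copies, so how reads were split between them is uncertain for each single gene. Without any 1 library of the 4, 6 of the 7 stayed called lower, and 4 of those with a mean value of at least 5.

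The position of WT matters for the direction. GFP cells stood 0.61 above WT in the median over the 7 genes, with 4 called higher, and RBMXL3 cells -0.55 from WT, with 6 called lower. RBMXL3 cells were thus below both controls, and the distance to GFP was the larger. Summed over the 7 genes, RBMXL3 libraries held 1989 and 1980 normalised counts, GFP 4666 and 4562, and WT 3157 and 2824. MTF1, the metal-sensing factor, changed by -0.33 (limma adjusted p 0.098) and the zinc exporter SLC30A1 by 0.37 (adjusted p 0.13), neither called in the 4 libraries, and SLC30A1 was at -0.27 in TPM (adjusted p 0.55). Without GFP replicate 2 both were called, at -0.53 and 0.59 (adjusted p 0.0048 and 0.013). In the wider list of 27 genes for metal binding and transport, 2 were called higher and 7 lower, the 6 metallothioneins included.

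Collagen genes were higher in RBMXL3 cells. Of the 25 members, 16 were called higher (64.0%) and 2 lower, with a median change of 0.58 and library pairings from 0.47 to 0.69. Against WT the median was 0.77 with 16 higher and 3 lower, and the median of GFP over WT was 0.001. TPM gave 6 higher and 0 lower of 23, with a median 0.25 above that of all members. The count was 12 without RBMXL3 replicate 1 and 10 without RBMXL3 replicate 2.

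The collagens that rose belong to different structural classes. COL3A1 (ENSG00000168542.17; chromosome 2, 188974320 to 189012746, plus strand), a fibril-forming collagen of soft tissue, had 503 and 489.8 normalised counts in RBMXL3, 207 and 214 in GFP, with 114 and 124 in WT. The groups did not overlap, and the change against GFP was 1.15 (SE 0.13; limma adjusted p 0.00028). COL9A3 (ENSG00000092758.18; chromosome 20, 62816244 to 62841159, plus strand), a chain of the cartilage collagen that coats fibrils, was the most abundant among the largest rises, with 5859 and 6342 against 2088 and 3218 in GFP, with 2833 and 2369 in WT, a change of 1.23 (SE 0.16; adjusted p 0.00063). COL7A1, which anchors epithelium to stroma, had 97.8 and 102 against 32.3 and 38.1, a change of 1.07 (adjusted p 0.0018), and its TPM was too low to be tested.

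COL27A1, a fibrillar chain, and COL6A1, of the beaded filaments around cells, rose by 0.88 and 0.83 (limma adjusted p 0.0023 and 0.00044). COL23A1, a membrane-spanning collagen, rose by 0.81 (adjusted p 0.00077), with 10403 and 10874 against 5542 and 6604. COL16A1 and COL14A1, which associate with fibrils, were the 2 called lower, at -0.66 and -0.64 (adjusted p 0.02 and 0.0044). The chains of the most common fibrillar collagen were not called, with COL1A1 at 0.16 and COL1A2 at -0.03. A wider list of 56 matrix genes, which shares members with the collagens, had 15 higher and 9 lower, SPP1 and FBN2 among the lower, and 9 and 8 higher without RBMXL3 replicate 1 and then 2. COL16A1 lost its call without RBMXL3 replicate 1 (limma adjusted p 0.22), and COL14A1 without RBMXL3 replicate 2 (0.063).

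**Figure D3:**
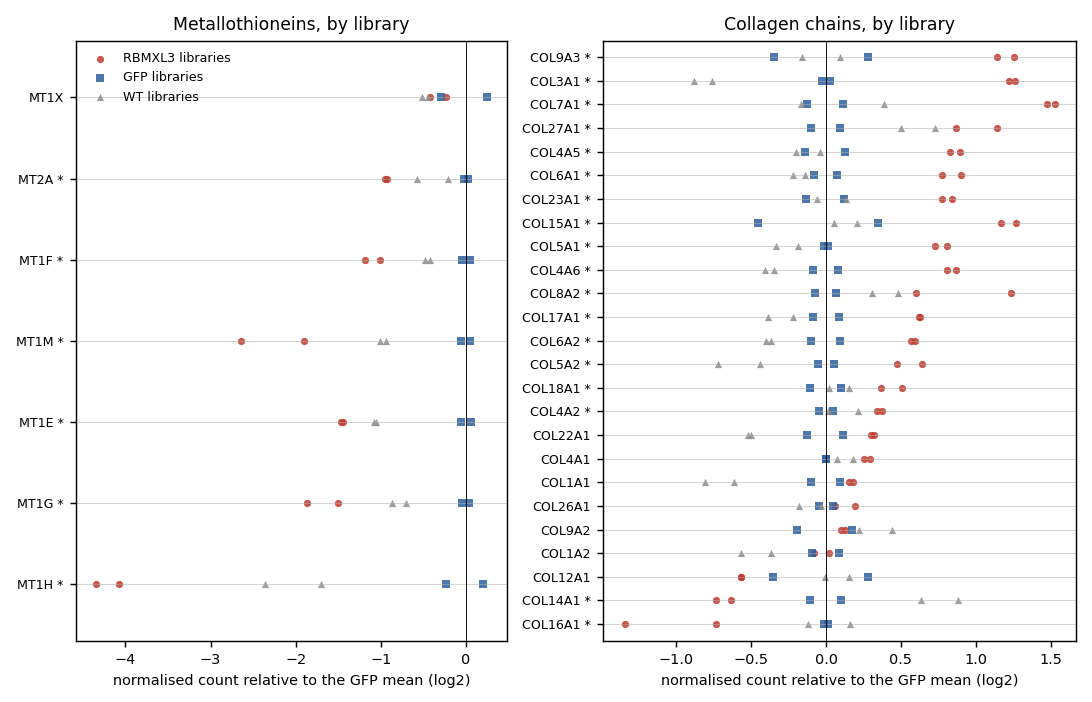
The 7 metallothioneins (left) and 25 collagen chains (right) are shown by library, as log2 of the normalised count over the GFP mean, with an asterisk on genes called between RBMXL3 and GFP. Metallothionein points of RBMXL3 lie left of GFP with WT between them except at MT1X. Both RBMXL3 points lie right of both GFP points for 20 collagens and left for 3. Of the collagens 16 were called higher and 2, COL14A1 and COL16A1, lower.

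AP-1 and immediate early genes, which cells switch on first after a signal, were higher where they moved. Of 12 AP-1 genes 4 were called higher (33.3%, against 11.3% of all members) and 0 lower. Of 25 other immediate early genes 5 were called higher (20%) and 0 lower. FOS (ENSG00000170345.10; chromosome 14, 75278774 to 75282230, plus strand) had 936 and 793 normalised counts in RBMXL3 against 121 and 112 in GFP, with 89.7 and 102 in WT, a change of 2.66 (SE 0.14; limma adjusted p 4.5e-07). Its dimer partners JUNB and JUN rose by 1.17 and 0.71 (adjusted p 0.0018 and 0.0055). EGR1 (ENSG00000120738.8; chromosome 5, 138465490 to 138469315, plus strand), a zinc finger factor of the serum response, had 2266 and 2440.2 in RBMXL3 and 952 and 829.6 in GFP, but 2419 and 1966 in WT. RBMXL3 cells were thus above GFP, by 1.38 (SE 0.12; adjusted p 3.9e-05), and overlapped with WT, at 0.11. IER2 rose by 0.69, the mRNA decay factor ZFP36 by 0.57 and the nuclear receptor NR4A1 by 0.49 (adjusted p 0.00077, 0.018 and 0.01). Of 14 genes of the NF-kB response, limma called 0 in counts and 1 in TPM. AP-1 genes called higher numbered 2 without RBMXL3 replicate 1 and 3 without RBMXL3 replicate 2, and other immediate early genes 2 and 2. JUN, NR4A1 and ZFP36 lost their call without RBMXL3 replicate 1 (limma adjusted p from 0.075 to 0.19), and NR4A1 and ZFP36 without RBMXL3 replicate 2 (from 0.075 to 0.14).

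Targets of p53 and genes of the cell death family moved in part. Of 33 p53 targets 10 were called higher (30.3%) and 2 lower (6.06%), with a median of 0.16. Of 17 BCL2 family genes 3 were higher (17.65%) and 0 lower, against 11.3% and 11.2% of all members. The BH3-only genes PMAIP1 and BBC3, which trigger apoptosis and stand on both lists, led them. PMAIP1 (ENSG00000141682.12; chromosome 18, 59899948 to 59904306, plus strand) had 2630.3 and 2711 against 894 and 1591, a change of 1.15 (SE 0.19; limma adjusted p 0.0019), with GFP replicate 2 nearer to the RBMXL3 libraries than GFP replicate 1. BBC3 had 659 and 711 against 363 and 374, with tight pairs in both groups, and changed by 0.85 (SE 0.12; adjusted p 0.0007). Fewer p53 targets were called higher when either RBMXL3 library was left out, and in TPM 7 were called higher and 1 lower. In the median of the p53 targets GFP cells stood 0.22 above WT and RBMXL3 cells 0.23.

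Cell cycle genes were called in both directions. Among 38 cyclins, cyclin-dependent kinases and their inhibitors 8 were called higher (21.1%) and 3 lower (7.89%), against 11.3% and 11.2% of all members. CDKN1B (ENSG00000111276.12; chromosome 12, 12715058 to 12722371, plus strand), the inhibitor p27 that holds cells in the first gap phase, had 1678 and 1775 normalised counts against 666 and 945 in GFP, with 779.8 and 815 in WT. The RBMXL3 libraries were above all controls, with a change of 1.1 (SE 0.14; limma adjusted p 0.0005) and 0.88 in TPM. CDKN1C, the related imprinted inhibitor p57, rose by 0.72, and CCNE1, a cyclin of S phase entry, fell by 0.59 (adjusted p 0.0037 and 0.0029). DNA replication genes had 0 higher and 11 lower of 51, with a median of -0.14, and PCNA, the polymerase clamp, had 6150.3 and 5855 against 8672 and 9027, a change of -0.56 (adjusted p 0.0022). Replication genes called lower numbered 1 without RBMXL3 replicate 1 and 1 without RBMXL3 replicate 2, and cyclin and inhibitor genes called higher 3 and 1. In TPM 3 of the replication list were called higher and 2 lower. Of 60 genes of mitosis and cohesion 4 were higher and 4 lower (6.67% each), below the shares of all members. CCNE1 lost its call without RBMXL3 replicate 1 (limma adjusted p 0.0504), and CDKN1C and PCNA without RBMXL3 replicate 2 (from 0.063 to 0.068).

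Genes of the translation machinery were lower in RBMXL3 than in GFP cells, as a group and by small amounts. Of 83 cytosolic ribosomal protein genes 1 was called higher and 40 lower (48.2%, against 11.2% of members), with medians of -0.32 for the 50 of the large subunit and -0.46 for the 33 of the small one. RPS29 (ENSG00000213741.11; chromosome 14, 49570984 to 49599164, minus strand) had 5668 and 5299 normalised counts in RBMXL3 against 11541 and 9813 in GFP, but 4644 and 8338 in WT. It changed by -0.95 against GFP (SE 0.20; limma adjusted p 0.0059), and the RBMXL3 libraries overlapped those of WT. RPS26, RPL39 and RPL27 fell by 0.78, 0.79 and 0.74 (adjusted p 0.0005, 0.0035 and 0.0033). Summed over the 83 genes, RBMXL3 held 1488632 and 1375783 normalised counts, GFP 1862634 and 1861885, and WT 1355399 and 1456924. RBMXL3 libraries thus overlapped those of WT, and GFP libraries stood above both. RPL27 and RPL39 lost their call without RBMXL3 replicate 2 (limma adjusted p from 0.055 to 0.06).

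The medians stayed below 0 under each scaling, but the number of calls depended on it. Under quantile normalisation 11 large and 8 small subunit genes were called lower, and in TPM 4 and 0, with medians of -0.19 and -0.21 relative to all members. Without RBMXL3 replicate 1 the counts were 10 and 10, and without RBMXL3 replicate 2 they were 4 and 3. Of 73 mitochondrial ribosomal proteins 3 were higher and 23 lower, of 50 translation factors 2 and 17, and of 53 genes of ribosome biogenesis 1 and 14. Their shares called lower were 31.5%, 34% and 26.4%, against 11.2% of all members. Among the translation factors EEF1B2, which recharges the elongation factor, had 7416 and 6829 against 12653 and 12345, a change of -0.81 (limma adjusted p 0.00044). In TPM 1, 6 and 0 of these 3 groups were called lower, in that order, against 6, 5 and 3 without RBMXL3 replicate 1 and 2, 4 and 1 without RBMXL3 replicate 2.

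Oxidative phosphorylation genes encoded in the nucleus were lower than in GFP cells. Of 42 members of respiratory complexes II to V, 2 were called higher and 28 lower (66.7%, against 11.2% of all members), with a median of -0.45. Of 35 members of complex I, 2 were higher and 14 lower (40%), with a median of -0.21. COX7B (ENSG00000131174.7; chromosome X, 77899438 to 77907373, plus strand), a small subunit of cytochrome c oxidase, had 1936 and 1547 normalised counts in RBMXL3, 4169 and 3429.5 in GFP, with 1891 and 2889 in WT. RBMXL3 lay below GFP, with a change of -1.12 (SE 0.17; limma adjusted p 0.0014), and next to 1 of the 2 WT libraries. NDUFS5 and NDUFA12, of complex I, fell by 1.02 and 1.00, and ATP5F1E, of the ATP synthase, by 0.71 (adjusted p 0.0007, 0.0002 and 0.0056). Complexes II to V summed to 155609 and 150182 normalised counts in RBMXL3, 206008 and 203568 in GFP and 164664 and 182271 in WT, so RBMXL3 was lowest and WT nearer to RBMXL3 than GFP was.

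In TPM limma called 0 higher and 1 lower of complexes II to V and 1 and 2 of complex I. Without RBMXL3 replicate 1 and then 2, 11 and 6 genes of complexes II to V were called lower, and 8 and 5 of complex I. NDUFB5, of complex I, went the other way in counts, with 642 and 556 against 79.5 and 250 and a change of 1.89 (adjusted p 0.002), but -0.27 in TPM (adjusted p 0.46). The 13 mRNAs encoded in mitochondria had 1 called higher and 1 lower. Their median differed with the libraries paired, from -0.61 to 0.67, and the mitochondrial share of the 2 GFP libraries was 1.31% and 2.77%. Of 31 glycolysis genes 1 was higher and 9 lower. LDHA, which makes lactate, had 8298 and 8645 against 14938 and 15290 in GFP, with 15650 and 14431 in WT, so RBMXL3 was below all controls, with a change of -0.83 against GFP (SE 0.10; limma adjusted p 0.00042) and -0.39 in TPM (adjusted p 0.15). Glycolysis genes called lower numbered 1 without RBMXL3 replicate 1 and 1 without RBMXL3 replicate 2.

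Protein folding and degradation genes were lower, here against both controls. Of 40 proteasome subunits 0 were called higher and 20 lower (50%, against 11.2% of all members), with a median of -0.32. Against WT 2 were higher and 12 lower, with a median of -0.21. PSMA5 (ENSG00000143106.13; chromosome 1, 109399031 to 109426427, minus strand), of the core ring, had 2120.5 and 1978 normalised counts in RBMXL3, 3560.4 and 3702 in GFP, with 2601 and 2940.5 in WT. RBMXL3 was lowest and GFP highest, with a change of -0.82 (SE 0.10; limma adjusted p 0.00045). PSMB1, also of the core, and PSMC2, an ATPase of the cap, fell by 0.71 and 0.56 (adjusted p 0.0021 and 0.0025). The count of lower proteasome genes was 3 without RBMXL3 replicate 1, 4 without RBMXL3 replicate 2 and 2 in TPM. PSMC2 lost its call without RBMXL3 replicate 1 (limma adjusted p 0.051).

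Of 36 heat shock chaperones and chaperonin subunits 2 were called higher (5.56%) and 12 lower (33.3%), with a median of -0.28. The shares of all members were 11.3% and 11.2%. HSPA8 (ENSG00000109971.14; chromosome 11, 123057489 to 123063230, minus strand), the constitutive chaperone of the cytosol and among the most abundant mRNAs, had 38108 and 37531 normalised counts in RBMXL3, 80638 and 70350 in GFP, with 75852 and 67862 in WT. The RBMXL3 libraries lay far below all 4 controls, with a change of -0.99 against GFP (SE 0.13; limma adjusted p 0.00063) and -0.86 in TPM (adjusted p 0.026). The chaperonin subunits CCT7, CCT8 and CCT5 fell by 0.68, 0.59 and 0.55 (adjusted p 0.0012, 0.0036 and 0.0058). In TPM 3 chaperones were called lower, under quantile normalisation 8, and without RBMXL3 replicate 1 and then 2, 3 and 2. CCT5 lost its call without RBMXL3 replicate 1 (limma adjusted p 0.07), and CCT5 and CCT8 without RBMXL3 replicate 2 (from 0.082 to 0.12).

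**Figure D4:**
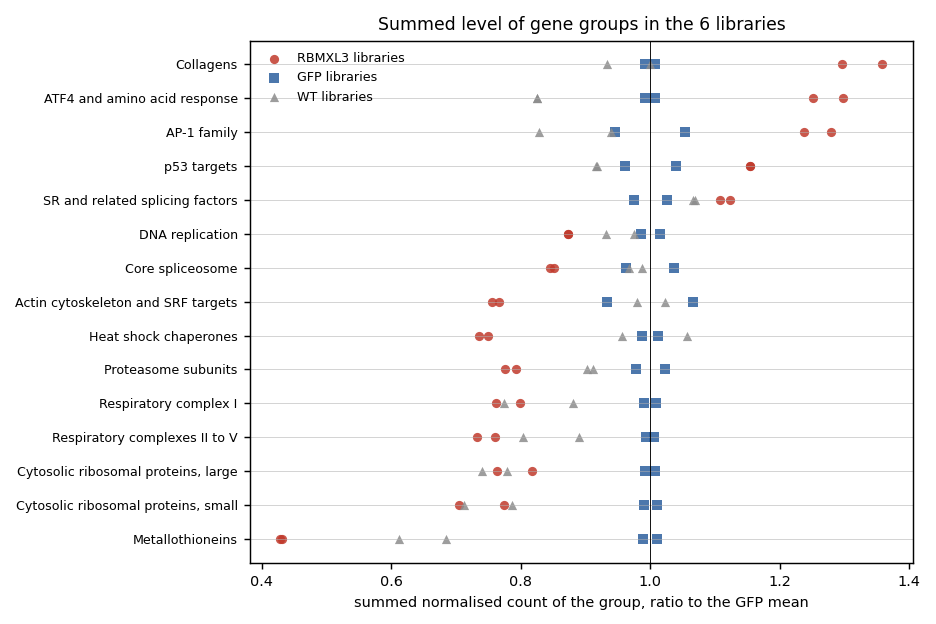
For 15 gene groups, the summed normalised count of each library is shown as a ratio to the mean of the 2 GFP libraries. RBMXL3 libraries lie left of both controls for metallothioneins, proteasome, chaperones, actin and DNA replication genes, beside WT for ribosomal proteins, and right of both controls for collagens, the ATF4 list, AP-1 and p53 targets.

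RNA-processing genes, the class that the RBMX family belongs to, moved in both directions. Of 71 genes of the core spliceosome 3 were called higher and 22 lower (31.0%, against 11.2% of all members), with a median of -0.22. SNRPG (ENSG00000143977.14; chromosome 2, 70281362 to 70293771, minus strand), a ring protein of the spliceosomal snRNPs, had 2453 and 1927 normalised counts in RBMXL3, 4499 and 5267 in GFP, with 3344 and 4139 in WT. The RBMXL3 libraries were the lowest, with a change of -1.15 against GFP (SE 0.14; limma adjusted p 0.00036) and -1.28 in TPM (adjusted p 0.017). SF3B6, which contacts the branch point, had 2321 and 2216 against 3828 and 4356, and changed by -0.84 in counts and -0.83 in TPM (adjusted p 0.00048 and 0.021). MAGOH, of the exon junction complex, and U2AF1, which reads the end of introns, fell by 0.69 and 0.68 (adjusted p 0.00094 and 0.0018). Spliceosome genes called lower numbered 8 without RBMXL3 replicate 1, 6 without RBMXL3 replicate 2 and 2 in TPM.

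Of 36 SR proteins and related regulators 10 were called higher (27.8%) and 3 lower (8.33%). LUC7L2 and LUC7L3, which help choose the start of introns, rose by 0.85 and 0.59 in counts (limma adjusted p 0.0021 and 0.013) and 0.71 and 0.47 in TPM. Of 44 hnRNP and related genes 4 were higher (9.09%) and 6 lower (13.6%), and of 23 genes of cleavage and polyadenylation 3 and 3 (13.0% each). These shares are near the 11.3% and 11.2% of all members. NUDT21, which binds the signal upstream of polyadenylation sites, had 1978 and 1894 against 765 and 741 in counts, a change of 1.33 (adjusted p 0.00011), but -0.26 in TPM (adjusted p 0.35). SYNCRIP, an hnRNP-like protein, changed by 1.06 in counts and -0.30 in TPM (adjusted p 0.0032 and 0.54). For NUDT21 and SYNCRIP the 2 tables thus differ in sign, and the cause was not tested. The SR genes called higher numbered 3 without RBMXL3 replicate 1 and 3 without RBMXL3 replicate 2, where 2 and 2 hnRNP genes were called higher and 0 and 0 lower. LUC7L3 lost its call without RBMXL3 replicate 1 and without RBMXL3 replicate 2 (limma adjusted p 0.09; 0.072).

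RNA polymerase subunits were lower where they moved, with 1 exception. Of 30 genes named POLR 1 was called higher and 13 lower (43.3%), with a median of -0.32. POLR2G, POLR2L and POLR2H, small subunits of RNA polymerase II, fell by 0.94, 0.85 and 0.85 (limma adjusted p 0.00084, 0.0028 and 0.00059). Among other families formed by the letters of the gene symbol, those of at least 20 members called lower at over 2 times the share of all members were RPL (19 of 47), RPS (15 of 41), ZNF (104 of 439), COX (10 of 20), MRPL (15 of 45), MRPS (8 of 28), EIF (14 of 50), ATP (17 of 65), GTF (7 of 22) and SEC (6 of 23). Families called higher at over 2 times that share were COL (16 of 25), SH (8 of 28), CD (7 of 26) and ARL (5 of 20), and, at 2.002 times, genes named H and a number (5 of 22).

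Cytoskeletal genes were lower where they moved. Of 40 genes of the actin cytoskeleton and targets of its transcription factor SRF 0 were called higher and 14 lower (35%). The share lower of all members was 11.2%. The median of the list was -0.26, and 19 of its genes were lower against WT. TAGLN (ENSG00000149591.17; chromosome 11, 117199321 to 117204782, plus strand), an actin-bundling protein, had 152 and 151 normalised counts in RBMXL3, 304 and 324 in GFP, with 417 and 451 in WT. The 3 groups did not overlap, and the change against GFP was -0.95 (SE 0.13; limma adjusted p 0.00063) with -1.19 in TPM (adjusted p 0.021). MYL6, a myosin light chain, fell by 0.83 (adjusted p 0.0011). Of 18 tubulin genes 0 were higher and 6 lower (33.3%), TUBA1A by 0.65 (limma adjusted p 0.0031). Under quantile normalisation the actin list had 8 lower, in TPM 3, and 5 without RBMXL3 replicate 1 as without RBMXL3 replicate 2, where the tubulins had 1 and 1.

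Zinc finger genes were lower on chromosome 19. Of 478 members named ZNF or of the KRAB family, transcription factors that mostly silence repeats, 28 were called higher and 106 lower (22.2%), with a median of -0.13. On chromosome 19, where these genes stand in long clusters, 7 of 223 were higher and 80 lower (35.9%), with a median of -0.27. On the other chromosomes 21 of 255 were higher and 26 lower (10.2%), with a median of -0.04. The 732 other members on chromosome 19 went the other way, with 143 higher and 44 lower (6.01%) and a median of 0.12.

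ZNF816 (ENSG00000180257.14; chromosome 19, 52949379 to 52962911, minus strand) had 149 and 153 normalised counts against 301 and 291 in GFP, with 302 and 260.1 in WT, a change of -0.87 (SE 0.13; limma adjusted p 0.0013). ZNF578 and ZNF823 fell by 0.86 and 0.86 (adjusted p 0.0018 and 0.0028), and ZNF836 changed by -0.89 in counts and 0.82 in TPM (adjusted p 0.0026 and 0.089). ZNF117 and ZNF483, on chromosomes 7 and 9, rose by 1.23 and 1.04 (adjusted p 0.0015 and 0.00074). In TPM 19 zinc finger genes were called higher and 2 lower, with a median -0.12 relative to all members, so the lower median was seen in both tables and the calls were not. The list had 33 lower calls without RBMXL3 replicate 1 and 33 without RBMXL3 replicate 2. Many of these genes are similar in sequence, and how reads were shared between them is uncertain.

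Signalling pathways of germ cell tumours were called gene by gene, some at shares near the 11.3% higher and 11.2% lower of all members. The shares were 5.26% and 10.5% for ERK feedback, 14.7% and 5.88% for WNT and 17.4% and 4.35% for Notch genes. They were 20% and 15% for FGF and receptor tyrosine kinase genes and 22.6% and 12.9% for NODAL, BMP and TGF-beta genes. Hypoxia targets were at 20.7% and 3.45%. Of 19 ERK feedback genes 1 was called higher and 2 lower. ETV1, an ETS factor, rose by 0.90, and DUSP4, a phosphatase of ERK, fell by 0.71 (limma adjusted p 0.00099 and 0.007). Of 20 FGF and receptor tyrosine kinase genes 4 were higher and 3 lower, VEGFA among the former. VEGFA, the vessel growth factor, had 649 and 649 against 359 and 326, a change of 0.88 (adjusted p 0.00069), and EPAS1, a hypoxia-inducible factor, rose by 0.87 (adjusted p 0.00066). In the list of 29 hypoxia targets, which holds both, 6 were higher and 1 lower. Of 31 genes of the NODAL, BMP and TGF-beta pathways 7 were higher and 4 lower, the activin antagonist FST at -0.85 (adjusted p 0.0022). Of 34 WNT genes 5 were higher and 2 lower, the extracellular inhibitor NOTUM by 0.83 and the ligand WNT5A by 0.77 (adjusted p 0.003 and 0.017). Of 23 Notch genes 4 were higher and 1 lower, the ligand DLL1 by 0.67 (adjusted p 0.0063). Without RBMXL3 replicate 1 and then 2, TGF-beta genes had 0 and 0 higher calls, WNT genes 1 and 1, Notch genes 0 and 1, and hypoxia targets 2 and 2. DLL1 and WNT5A lost their call without RBMXL3 replicate 1 (limma adjusted p from 0.1 to 0.13), DUSP4 and WNT5A without RBMXL3 replicate 2 (from 0.063 to 0.086), and WNT5A without GFP replicate 1 (0.082).

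Chromatin, lipid and transport genes were called in both directions. Of 53 genes of histone methylation and Polycomb 9 were called higher (17.0%) and 2 lower (3.77%), against 11.3% and 11.2% of all members. KDM6B, a demethylase that lifts the Polycomb mark, had 594 and 557 normalised counts against 284 and 302, a change of 0.92 (SE 0.13; limma adjusted p 0.00075) and 0.94 in TPM. BMI1 shares exons with the readthrough gene COMMD3-BMI1, and changed by 1.73 in counts and -0.54 in TPM (adjusted p 0.00049 and 0.2). Of 26 cholesterol synthesis genes 4 were higher (15.4%) and 2 lower (7.69%), the sterol oxidase MSMO1 by 0.91 (adjusted p 0.0056). Of 193 solute carriers 28 were higher (14.5%) and 11 lower, SLC7A11 the largest rise, and SLC2A13, a myo-inositol transporter, rose by 0.99 (adjusted p 0.00063). Solute carriers called higher numbered 12 without RBMXL3 replicate 1 and 9 without RBMXL3 replicate 2, and histone methylation genes 3 and 3.

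Germ cell identity genes were called in both directions. Of 22 pluripotency factors 4 were called higher (18.2%) and 4 lower (18.2%), with a median of -0.03, and of 24 markers of primordial germ cells and seminoma 6 (25%) and 4 (16.7%), against 11.3% and 11.2% of all members, with -0.04. NANOG changed by -0.26, SOX17 by -0.12, PRDM1 by -0.25 and TFAP2C by -0.07 (limma adjusted p 0.11, 0.5, 0.093 and 0.73), and none was called in the 4 libraries. In TPM the change of NANOG was 0.03 (adjusted p 0.29). NANOG was called without GFP replicate 1, at -0.33, and PRDM1 without GFP replicate 2, at -0.32 (adjusted p 0.025 and 0.016). POU5F1 was at 0.33 (adjusted p 0.08), and was called higher without GFP replicate 2, at 0.44, under quantile normalisation, at 0.64, and in TPM (adjusted p 0.0086, 0.0033 and 0.041). KIT, the receptor for stem cell factor, had 1411 and 1429 in RBMXL3, 1802 and 1926 in GFP, with 2578 and 2403 in WT, a change of -0.39 against GFP (adjusted p 0.015). SALL4 fell by 0.39 and DPPA4 rose by 0.44 (adjusted p 0.013 and 0.014). Without RBMXL3 replicate 1 and then 2, 0 and 0 pluripotency factors were called in either direction, and 1 and 1 of the seminoma markers in each. DPPA4, KIT and SALL4 lost their call without RBMXL3 replicate 1 and without RBMXL3 replicate 2 (limma adjusted p from 0.15 to 0.18; from 0.11 to 0.16).

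Of 11 later germ cell genes 4 were called higher (36.4%) and 1 lower (9.09%), against 11.3% and 11.2% of all members. REC8, the meiotic cohesin, had 287 and 306 against 161 and 179, a change of 0.73 (limma adjusted p 0.0035), and SYCP2, of the axis of meiotic chromosomes, changed by 1.03 in counts and 0.07 in TPM (adjusted p 0.0015 and 0.62). Of 11 trophoblast members 3 were higher (27.3%) and 2 lower (18.2%), with changes of all 11 from -0.70 to 1.03. The 2 called lower are not named here. ERVFRD-1, the fusion protein syncytin of the placenta, had 153 and 175 in RBMXL3, 90.6 and 49.8 in GFP, with 17.8 and 25.2 in WT, a change of 1.03 (SE 0.21; adjusted p 0.0049). Of 12 members among markers of somatic layers 2 were higher and 2 lower (16.7% each), with changes of all 12 from -0.66 to 1.03. The 2 higher were the endoderm factor FOXA2, by 1.03, and the hindgut factor CDX1, by 0.75 (limma adjusted p 0.0021 and 0.0078). The 2 lower are not named here either. FOXA2 had 66.9 and 84.5 against 24 and 25.4, a low level in all libraries. The calls of these 3 lists are few, and the summed levels of the marker lists are given above. CDX1 and REC8 lost their call without RBMXL3 replicate 2 (limma adjusted p from 0.06 to 0.1).

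**Figure D5:**
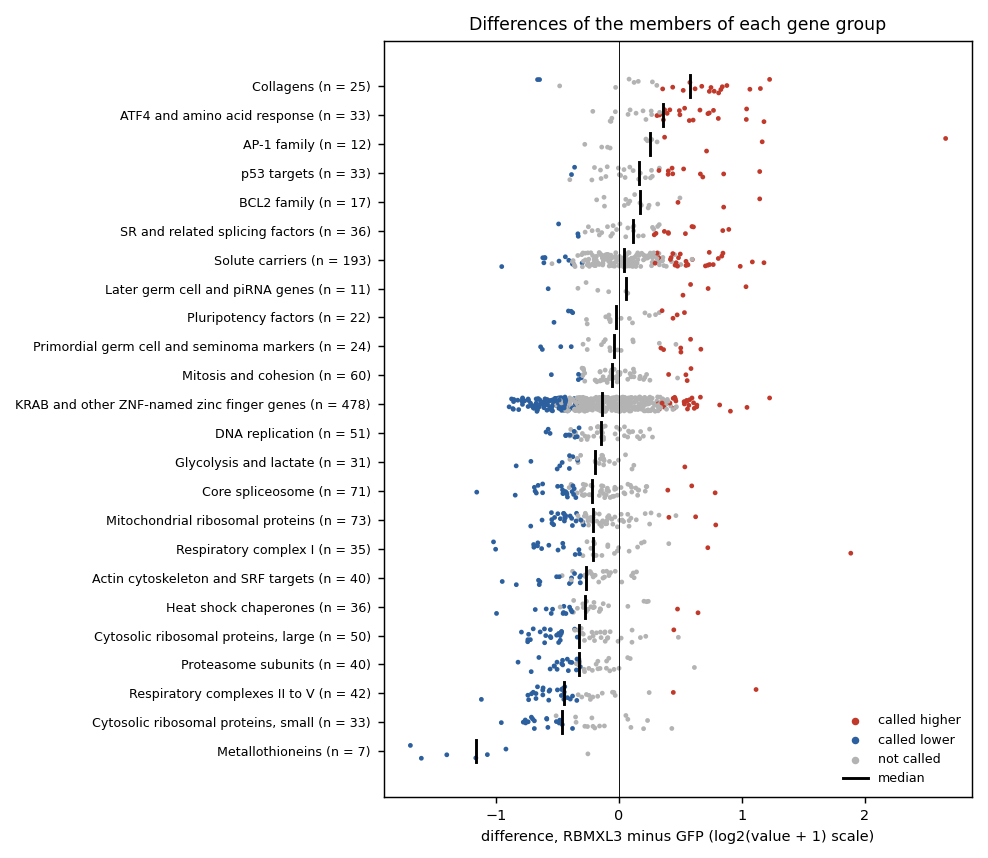
Each point is a member of the gene group named at the left, at its difference between RBMXL3 and GFP on the log2(value + 1) scale, red where called higher, blue where called lower and grey where not called, with a bar at the median. Collagens and the ATF4 list lie to the right, metallothioneins furthest to the left, and ribosomal, respiratory and proteasome genes in a band at medians from -0.46 to -0.21.

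Members with a short summed exon length, and the more abundant ones, were more often called lower. Summed exon length counts all annotated exon bases of a gene, over all its transcripts, and is not the length of its mRNA. Members were ranked by it and split into 4 groups of equal size. Of the shortest (up to 3278 bases) 8.86% were called higher and 17.1% lower, against 13.0% and 6.35% of the longest (from 7609 bases). The median change was -0.06 in the shortest group and 0.03 in the longest. The 2 GFP libraries differed from each other along the same axis, with medians of -0.05 and 0.08 for GFP replicate 1 less GFP replicate 2. GFP less WT ran the other way and further, with medians of 0.11 in the shortest group and -0.13 in the longest. In TPM, which takes transcript length into account, the medians of the 4 groups lay between 0.11 and 0.13 before the shift was subtracted. Split by abundance in the same way, the lowest group had a median change of 0.07 and the highest -0.09. Median exon lengths were 3002.00 bases for the ribosomal proteins and 2726.00 for complexes II to V, within the range of the shortest group. The proteasome was at 4461.00, above that range, and all members at 5127.00. The part of exon length or abundance in the falls of these groups was not tested. The metallothioneins had a median exon length of 1052.00 bases, and their median change was as large in TPM, at -1.29 relative to all members. The collagens had 8525.00 bases and the ATF4 list 4745.00.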

How the data were processed

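PolyA RNA of TCam-2 cells was sequenced from stranded libraries, 2 for each of RBMXL3, GFP and WT. The submitters' processing notes name Trim Galore 0.6.10, STAR 2.7.11a, DESeq2, Salmon 1.10.2 and the build GRCh38 (hg38), without roles. The counter, its annotation and its strand setting are not given in the sources used here.

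The gene table deposited by the authors holds a signal per gene: read counts divided by 1 size factor per library. Its name says CPM, which the analysis plan had assumed, but its columns have unequal totals, as counts over size factors do, and whole reads were recovered from 100% of 145320 nonzero values within 0.01 of a read. The second table, transcript TPM deposited by the authors, was summed per gene with GENCODE 29 (80.0% of transcripts, 94.7% to 95.1% of TPM). The table columns of no sample numbered 0.

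Normalised counts were divided by a common factor of 23.9, the 14292 genes that reached a value of 1 in 2 or more libraries entered the fit, and limma 3.58.1 (R 4.3.3) was fitted to log2(value + 1) over all 6 libraries, with Benjamini-Hochberg adjustment over all genes tested. Called means adjusted p under 0.05. On simulated data for RBMXL3 against GFP (14064 genes) 95% of 200 genes given a log2 change of 1 were recovered, with 6 false calls. The simulation gave all genes and libraries the same dispersion and independent noise, whereas the spread of the real groups differed. It therefore checks the fit and does not measure the false calls in these data. Alternatives were edgeR 4.0.16, DESeq2 1.42.0, TMM, quantile normalisation, another pseudocount, other filters, the 4 libraries alone, a replicate block, TPM and leaving out each library. A floor of 3 reads stood for a count of 0, and intervals cover counting error only.

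The members and gene lists were chosen with earlier results of these data known. Genes were named by rule: RBMXL3, the 12 largest rises and falls among called protein-coding members with a mean of at least 100 in the higher group, no overlap between groups, under 20% of exons shared and the same direction in TPM, up to 4 called genes per list and direction, every member of lists of up to 8, and regulators of a list. Other ATF4 genes, some collagens, genes whose tables differ in sign and those of the closing section were named after their values were seen, and some genes that the rule named are given only in counts. Genes antisense to abundant genes were left out, and a few genes that the rule or lists hold are not reported here. Gene coordinates are those of GENCODE 29 on GRCh38, and promoters come from RefSeq. Python 3.11.15, pandas 2.3.3 and matplotlib 3.10.9 were used.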

Additional observations from a re-analysis of the deposited data

How the results depend on the processing

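The count of called members was between 2258 and 2844 with a pseudocount of 0.1, a mean value of at least 5, the 4 libraries alone, quantile normalisation, TMM, edgeR, DESeq2 and the replicate block, against 2846 as reported. Without any filter on low values, where more genes enter the fit, 798 were called, 400 higher and 398 lower. Leaving out 1 library gave from 623 (without RBMXL3 replicate 2) to 4168 (without GFP replicate 2), with from 357 to 2007 higher and from 266 to 2161 lower. Each of these leaves a group with 1 library, which is assumed to vary like the others. In salmon TPM 880 were called, 702 higher and 178 lower, and the cause of the difference was not tested. On that scale, whose median over members is 0.12, 5 of the named genes called in counts changed sign, NUDT21 at -0.135, BMI1 at -0.42, SYNCRIP at -0.183, NDUFB5 at -0.144 and ZNF836 at 0.945. Over 138 named genes and 14 alternatives, 1764 comparisons kept their side of the threshold (and, where called, their direction; genes not called in counts, such as ATF4 and NANOG in TPM, could change sign), 141 lost the call, 10 gained one and 5 reversed. Of the 141, 38 came without a filter, 49 in TPM, 21 without RBMXL3 replicate 1 and 28 without RBMXL3 replicate 2. CCT5 and KRT18 lost their call under quantile normalisation and COL16A1 in DESeq2.

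Libraries with the same replicate number did not deviate together, with correlations of -0.094, 0.034 and -0.156 between pairs of groups over 14292 genes, so the numbers are not taken to pair the libraries. With the replicate block 2258 members were called, 1161 higher and 1097 lower, and 1 of the named genes, SLC3A2, lost its call. With 2 libraries a group, and 17685680 reads in the shallowest, small changes in genes of few reads were not detectable.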

Other observations

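Redox and iron genes were mixed. Of 34 genes of the NRF2 and glutathione list 4 were called higher (11.8%) and 8 lower (23.5%), with a median of -0.24. Of all members 11.3% were higher and 11.2% lower, so the share higher was near that of all members. SLC7A11 was again the largest rise. FTH1, the heavy chain of the iron store ferritin, had 32718 and 33757 normalised counts in RBMXL3 libraries, 60960 and 58540 in GFP libraries and 57925 and 52886 in WT libraries. Both RBMXL3 values lay below all 4 controls, with a log2 change against GFP of -0.85 (SE 0.12; limma adjusted p 0.00088) and -0.62 in TPM (adjusted p 0.046). TXN, the cytosolic thioredoxin, had 1671 and 1495 in RBMXL3, 2202 and 2453 in GFP and 1591 and 1904 in WT, so that its fall of 0.55 against GFP (adjusted p 0.0061) left RBMXL3 libraries next to WT. The list was counted without RBMXL3 replicate 1 at 1 higher and 3 lower, and without RBMXL3 replicate 2 at 1 and 1. TXN lost its call without RBMXL3 replicate 2 (limma adjusted p 0.11).

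Vesicle and lysosome genes were mostly lower where called. Of 51 lysosome and autophagy genes 2 were called higher (3.92%) and 12 lower (23.5%), against 11.3% and 11.2% of all members. ULK1, the kinase that starts autophagy, rose by 0.57 with 3987 and 4359.7 against 2948 and 2676, and ATG3, which attaches lipid to LC3, fell by 0.69 with 2110.2 and 2025 against 3282 and 3435 (limma adjusted p 0.0027 and 0.0013). Both went the same way in TPM, at 0.59 and -0.76. Of 38 genes of coated-vesicle transport 5 were higher (13.2%) and 7 lower (18.4%), the COPI coat subunit COPB1 at -0.55 (adjusted p 0.0021). Of 27 genes of the YAP and TEAD pathway 5 were higher (18.5%) and 1 lower (3.70%), the kinase activator MOB1B at 0.79 (limma adjusted p 0.00098). Of 14 intermediate filament genes 0 were higher and 4 lower (28.6%), among them KRT18 at -0.41 (limma adjusted p 0.016). Lower calls without RBMXL3 replicate 1 and then 2 numbered 3 and 3 for lysosome genes, 2 and 0 for vesicle transport and 0 and 1 for intermediate filaments, and higher calls for YAP genes 1 and 2. KRT18 lost its call without RBMXL3 replicate 1 (limma adjusted p 0.2), and COPB1, KRT18 and ULK1 without RBMXL3 replicate 2 (from 0.055 to 0.17).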
